A study of Homo sapiens with 118 samples.

Results

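Interferon-stimulated genes are the genes that cells switch on when an interferon, or a viral nucleic acid, is sensed. They were followed here in the human liver line HepaRG during exposure to histone deacetylase inhibitors, which keep the enzymes that strip acetyl groups off histones and further proteins from working. A list of 43 gene symbols defined the set, and a row of the count table was a member when its symbol was on that list. Of these genes 41 had a row, and IFITM2 and IFITM3 had none. Because IRF9, OAS1 and OAS3 had 2 probes each, the 41 genes gave 44 features of 22068 in the table. A feature is 1 row, that is, 1 detector probe, and is named by gene symbol and probe number where a gene has several.

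The study comprised 118 TempO-Seq libraries in 40 groups, made from 8 inhibitors at 5 concentrations each. TempO-Seq hybridises pairs of detector probes to transcripts in a cell lysate and counts the ligated pairs by sequencing. All groups were differentiated HepaRG cells, a line that came from a liver tumour associated with chronic hepatitis C, and each was exposed for 72 h with a daily change of chemical. Replicates 1, 2 and 3 of a group came from 3 different batches of these cells. The concentrations are called C1 (lowest) to C5 (highest). The apicidin dose went from 0.041722 µM at C1 to 0.86 µM at C5, mocetinostat from 0.177222 to 3.9 µM, panobinostat from 0.001468 to 0.084 µM and scriptaid from 4.94 to 94.5 µM. Tacedinaline was given from 1.143333 to 44 µM, trichostatin A from 0.018811 to 1.5237 µM and vorinostat from 0.404778 to 23.5 µM. Valproic acid carried dose labels from 100.478 to 3038, whose unit is open because the labels and the protocol disagree. Of the 40 groups, 38 held 3 libraries, and the other 2 (C3 of panobinostat, C4 of trichostatin A) held 2. Solvent controls were not analysed here, so C1 of the same chemical was the reference in every comparison. An effect that the lowest dose had brought to its end is invisible in such a comparison, and the comparisons of 1 chemical share their C1 libraries. The cells were 1 line, and bulk lysates cannot tell fewer cells of a type from less RNA per cell.

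In the textbook pathway, type I and type III interferons bind their receptors, the kinases JAK1 and TYK2 become active, and STAT2 enters with IRF9 into the complex ISGF3. ISGF3 binds the interferon-stimulated response element (ISRE) in the promoters of its targets. Interferon gamma acts on promoters with a gamma-activated site (GAS). In hepatocytes the induced genes include sensors of viral nucleic acid, the IFIT, OAS, MX and GBP families, ISG15 with its conjugating and deconjugating enzymes, and feedback inhibitors. IRF1 also keeps part of the set expressed at rest.

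The promoter letters of the members were described. The list holds genes known for induction by interferon, so a high share with the ISRE is partly built into it. In the 300-base windows of the RefSeq promoter table (GRCh38.p14, 250 bases before and 50 after each start), 33 members had a window. TRIM22, OASL, GBP2, IFIT2, OAS2, USP18, IRF7 and MX2 had none. The ISRE core, spelled here as GAAA, any 2 bases, GAAA on either strand, was found in 23 of them (69.7%), against 1195 of 27305 symbols in the table (4.38%). The GAS, spelled as TTC, any 3 bases, GAA on either strand, was found in 11 of the 33 (33.3%), against 9.38% of all symbols. Genes that later rose and genes that later fell both held the core. It was present in 3 of 4 genes with a window that only rose (IFI6, IFIT1 and HERC5, not IRF1) and in 11 of 18 that only fell. The falling genes with a window but without the core were HERC6, IFI16, IRF9, OAS1, SAMD9L, STAT2 and XAF1. The core was also present in 9 of 11 genes that were not called or not tested. A match is a description of the letters and not a binding site. The stretches below hold the cores with the bases around them in these windows, written 5′ to 3′ on the strand of the gene, with each core in capitals. The first 3 belong to genes that rose and the other 4 to genes that fell.
IFI6 (chr1:27672251-27672373, minus strand): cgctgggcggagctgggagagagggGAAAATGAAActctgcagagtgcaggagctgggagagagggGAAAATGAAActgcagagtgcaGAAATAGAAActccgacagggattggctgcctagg
IFIT1 (chr10:89392482-89392554, plus strand): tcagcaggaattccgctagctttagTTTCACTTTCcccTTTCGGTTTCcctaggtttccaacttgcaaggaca
HERC5 (chr4:88456969-88457079, plus strand): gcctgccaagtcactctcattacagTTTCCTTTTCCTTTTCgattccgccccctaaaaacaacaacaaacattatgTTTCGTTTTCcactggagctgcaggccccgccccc
IFIT3 (chr10:89332410-89332512, plus strand): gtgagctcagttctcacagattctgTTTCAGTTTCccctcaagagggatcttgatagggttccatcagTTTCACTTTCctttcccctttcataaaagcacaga
DDX60 (chr4:168318771-168318865, minus strand): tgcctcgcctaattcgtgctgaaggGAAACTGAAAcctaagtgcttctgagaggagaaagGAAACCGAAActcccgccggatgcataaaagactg
PARP9 (chr3:122564307-122564366, minus strand): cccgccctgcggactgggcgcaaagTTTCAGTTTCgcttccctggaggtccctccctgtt
GBP1 (chr1:89065301-89065360, minus strand): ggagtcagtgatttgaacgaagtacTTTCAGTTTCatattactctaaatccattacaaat
RefSeq gives IFIT3 and PARP9 a second window each, which is not shown.

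Total counts per library ranged from 1061359 to 5250260, and the 44 features took 0.158% to 0.383% of them. In 7 of the 118 libraries the highest correlation with another library of the group (Pearson, over log2 levels of features with a mean count of at least 50) lay between 0.767 and 0.897, whereas it was at least 0.925 in the other 111. These 7 were replicate 3 of scriptaid C4, mocetinostat C2, trichostatin A C1 and valproic acid C4, replicate 1 of mocetinostat C3 and apicidin C4, and replicate 2 of panobinostat C2. Of them, trichostatin A C1 entered a C5 comparison directly, and counts without the 7 are given where they differ. The mean total was lower at C5 than at C1 in all 8 chemicals, from 3832638 and 3725492 in trichostatin A to 3038905 and 1485592 in vorinostat. Thinning all libraries to 1061359 counts kept 89 of the 102 calls it could test. The labels call the cells liver progenitor cells. The hepatocyte product ALB had a median of 49584 counts and at least 1952 in every library. Among biliary or progenitor markers, EPCAM was at 0 in 113 libraries, and KRT7 had medians of 0 and 4 counts by its probes. SOX9 had a median of 103 counts, SPP1 of 57.5, and KRT19 of 47 and 130.5 by its probes.

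At C5 the members fell far more often than they rose, and they did so in 7 of the 8 chemicals. Among the 44 features, 4 passed the filter on low counts in no chemical (RSAD2, CMPK2, EPSTI1 and IFI44L), 29 passed in all 8 and 11 in some. A feature was called when edgeR's quasi-likelihood test gave a Benjamini-Hochberg adjusted p under 0.05 over all features and the fold change was at least 1.5. By this rule 24 features fell in at least 1 chemical and never rose, 5 rose and never fell, and 11 were tested but never called. Over the 8 chemicals this made 98 falls and 21 rises. The groups of 3 libraries did not overlap in 118 of these 119 calls. A call already favours such a separation, so this adds no support, and the share over all features was not counted. Leaving out 1 replicate at a time kept 66 of the 119 calls in all 3 fits and reversed none. The heat map of changes at C5 shows every member.

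**Figure D1:**
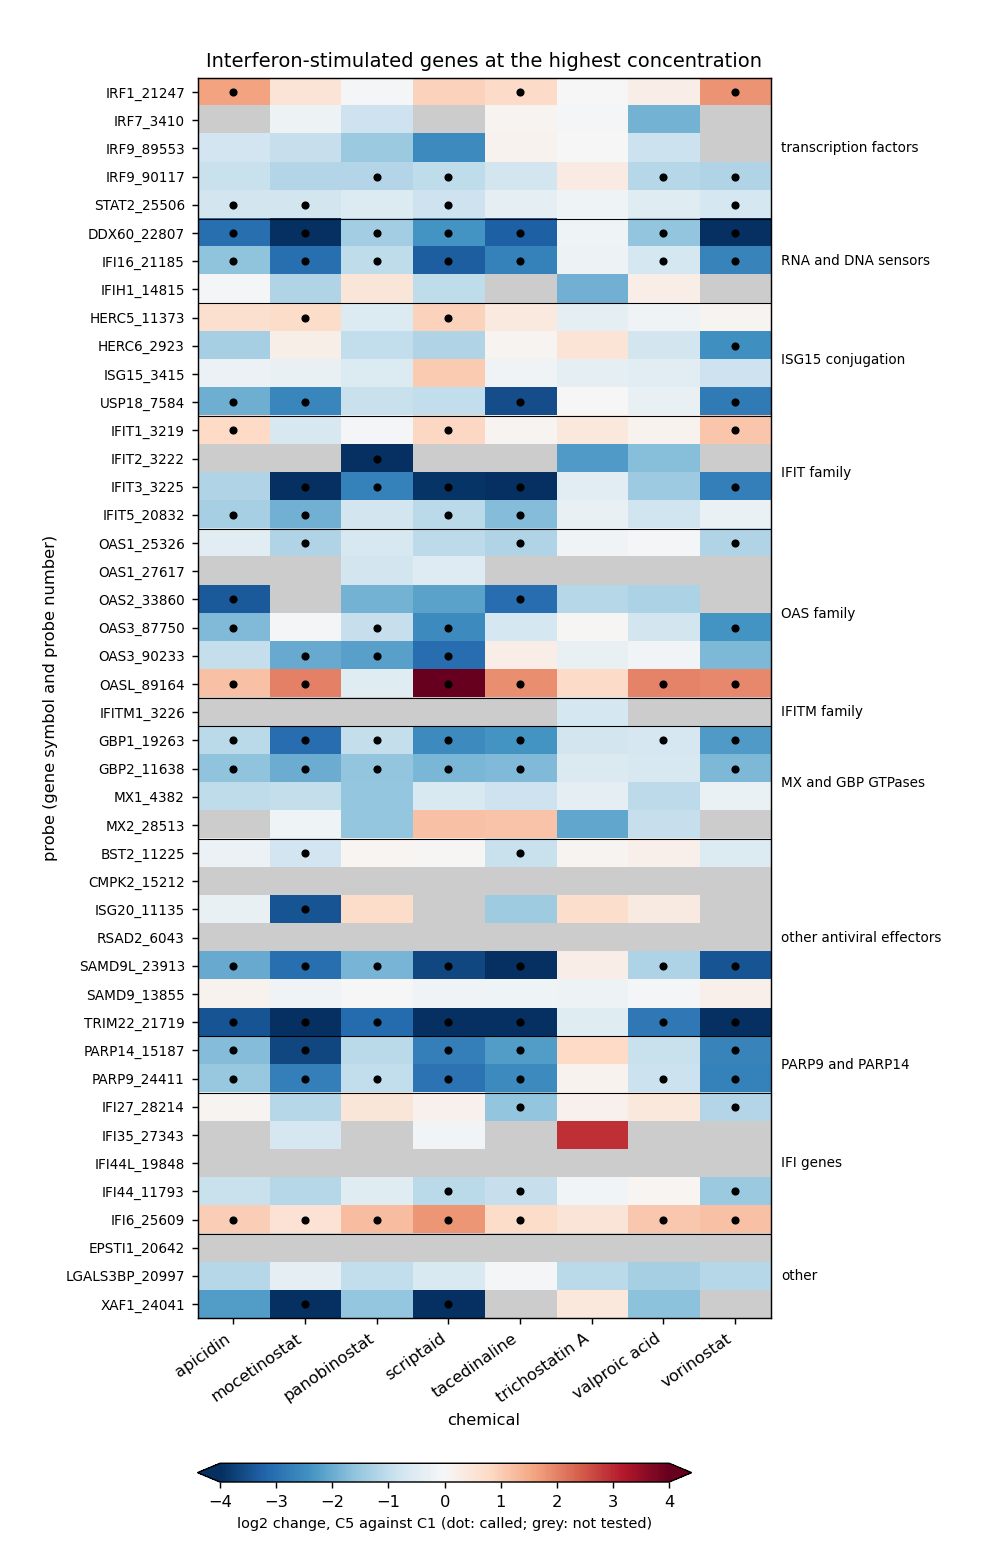
Log2 change at C5 against C1 for the 44 features (rows, grouped by role) in 8 chemicals (columns), coloured from -4 to 4, with a dot for each called change and grey for features that were not tested. Falls fill the rows of TRIM22, SAMD9L, DDX60, IFI16, PARP9, GBP1 and GBP2, and rises those of IFI6 and OASL. The trichostatin A column has 0 dots.

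Read against all features, the falling share was above the background in these 7 chemicals, whereas the rising share was above it in valproic acid alone and by a small margin. In apicidin 13 of 34 members tested fell (38.2%), against 15% of all features tested, and 4 rose (11.8%), against 13.8%. In mocetinostat 17 of 36 fell (47.2%), against 15.7%, and 3 rose (8.33%), against 14.8%. Panobinostat had 12 of 38 falling (31.6%), against 9.46%, and 1 rising (2.63%), against 6.77%. These 3 chemicals thus had falling shares above the background. Scriptaid had 16 of 36 falling (44.4%), against 17%, and 4 rising (11.1%), against 12.8%. Tacedinaline had 16 of 34 falling (47.1%), against 20.1%, and 3 rising (8.82%), against 18.7%. Vorinostat had 17 of 29 falling (58.6%), against 24.9%, and 4 rising (13.8%), against 22.7%. In these 3 too the falling share was above that of all features and the rising share below it. Valproic acid had 7 of 37 falling (18.9%), against 6.22%, and 2 rising (5.41%), against 4.84%. In trichostatin A 0 of 39 members were called, against 0% of all features rising and 0.0154% falling, and 5 members had an unadjusted p under 0.05. DESeq2 also called 0 there. The median log2 change of the members lay between -1.19 in vorinostat and -0.69 in valproic acid for the 7 and at -0.15 for trichostatin A. Setting features at the floor of 3 counts to their bound left the members' medians as they were. The median of all features was at most 0.08 in any chemical. These shares cover the members that passed the filter and stand as a description of the list.

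Levels per library are given in CPM, the count scaled to a fixed total after TMM scaling of the libraries of a chemical, and they are not compared between genes. TRIM22, a tripartite motif protein that restricts several viruses, fell in 7 chemicals. Among the called members it had the lowest log2 change in 5 of them, while the fitted values of IFIT2 in panobinostat and DDX60 in vorinostat, both at the floor of 3 counts at C5, were lower. In tacedinaline it was at 94.9, 93.4 and 124 CPM at C1 and at 2.73, 3.01 and 0.9 at C5. In panobinostat it was at 145, 145 and 145 at C1 and at 14.2, 14.8 and 23.1 at C5. All C5 libraries lay far below all C1 libraries in both. The fall was 46-fold in tacedinaline (log2 change -5.52, SE 0.36, edgeR adjusted p = 1.53e-16) and 8.36-fold in panobinostat (log2 change -3.06, SE 0.20, edgeR adjusted p = 1.52e-09). The log2 changes were -5.36 in mocetinostat, -4.81 in vorinostat, -4.41 in scriptaid, -3.44 in apicidin and -2.88 in valproic acid. TRIM22 passed in all 7 chemicals and in every fit that left out a replicate. In trichostatin A it was at 170.0, 148 and 110.5 at C1 and at 86.9, 98 and 122 at C5, where the groups overlapped (log2 change -0.48, SE 0.19, edgeR adjusted p = 0.461). Without replicate 3 at every concentration the change in trichostatin A was called (log2 change -0.79, edgeR adjusted p = 0.0327). Leaving out only the C1 library that stands apart, which is of the same replicate, gave 0 called members there.

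SAMD9L fell in the same 7 chemicals, whereas SAMD9, the adjacent gene on chromosome 7, was called in none. Both encode antiviral factors with growth-restraining activity. SAMD9L was at 97.5, 115 and 90.7 CPM at tacedinaline C1 and at 3.81, 7.52 and 5.85 at C5 (log2 change -4.09, SE 0.31, edgeR adjusted p = 1.28e-14). SAMD9 was at 289, 289 and 264 in the same C1 libraries and at 282, 264 and 196 at C5 (log2 change -0.18, SE 0.14, edgeR adjusted p = 0.332). The SAMD9L groups were far apart and the SAMD9 groups overlapped. In scriptaid SAMD9L went from 117, 118 and 135 to 15.4, 7.89 and 6.24 (log2 change -3.65, SE 0.42, edgeR adjusted p = 4.48e-06), and SAMD9 from 227, 254 and 249.7 to 239, 213 and 211 (log2 change -0.14, SE 0.31, edgeR adjusted p = 0.774). Over the 8 chemicals the log2 change of SAMD9 ran from -0.19 to 0.22, and that of SAMD9L from -4.09 to -1.22 in the 7 chemicals in which it fell. All 7 calls of SAMD9L were kept in each fit without a replicate. SAMD9 was not steady in every library: it was under 100 CPM in 6 of the 118, against a median of 264 over all. Those 6 were 4 of the libraries that stand apart (valproic acid C4, mocetinostat C3, panobinostat C2 and apicidin C4) and replicates 1 and 2 of mocetinostat C2. None of them is a C1 or C5 library. This limit of 100 was chosen after the values were seen.

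**Figure D2:**
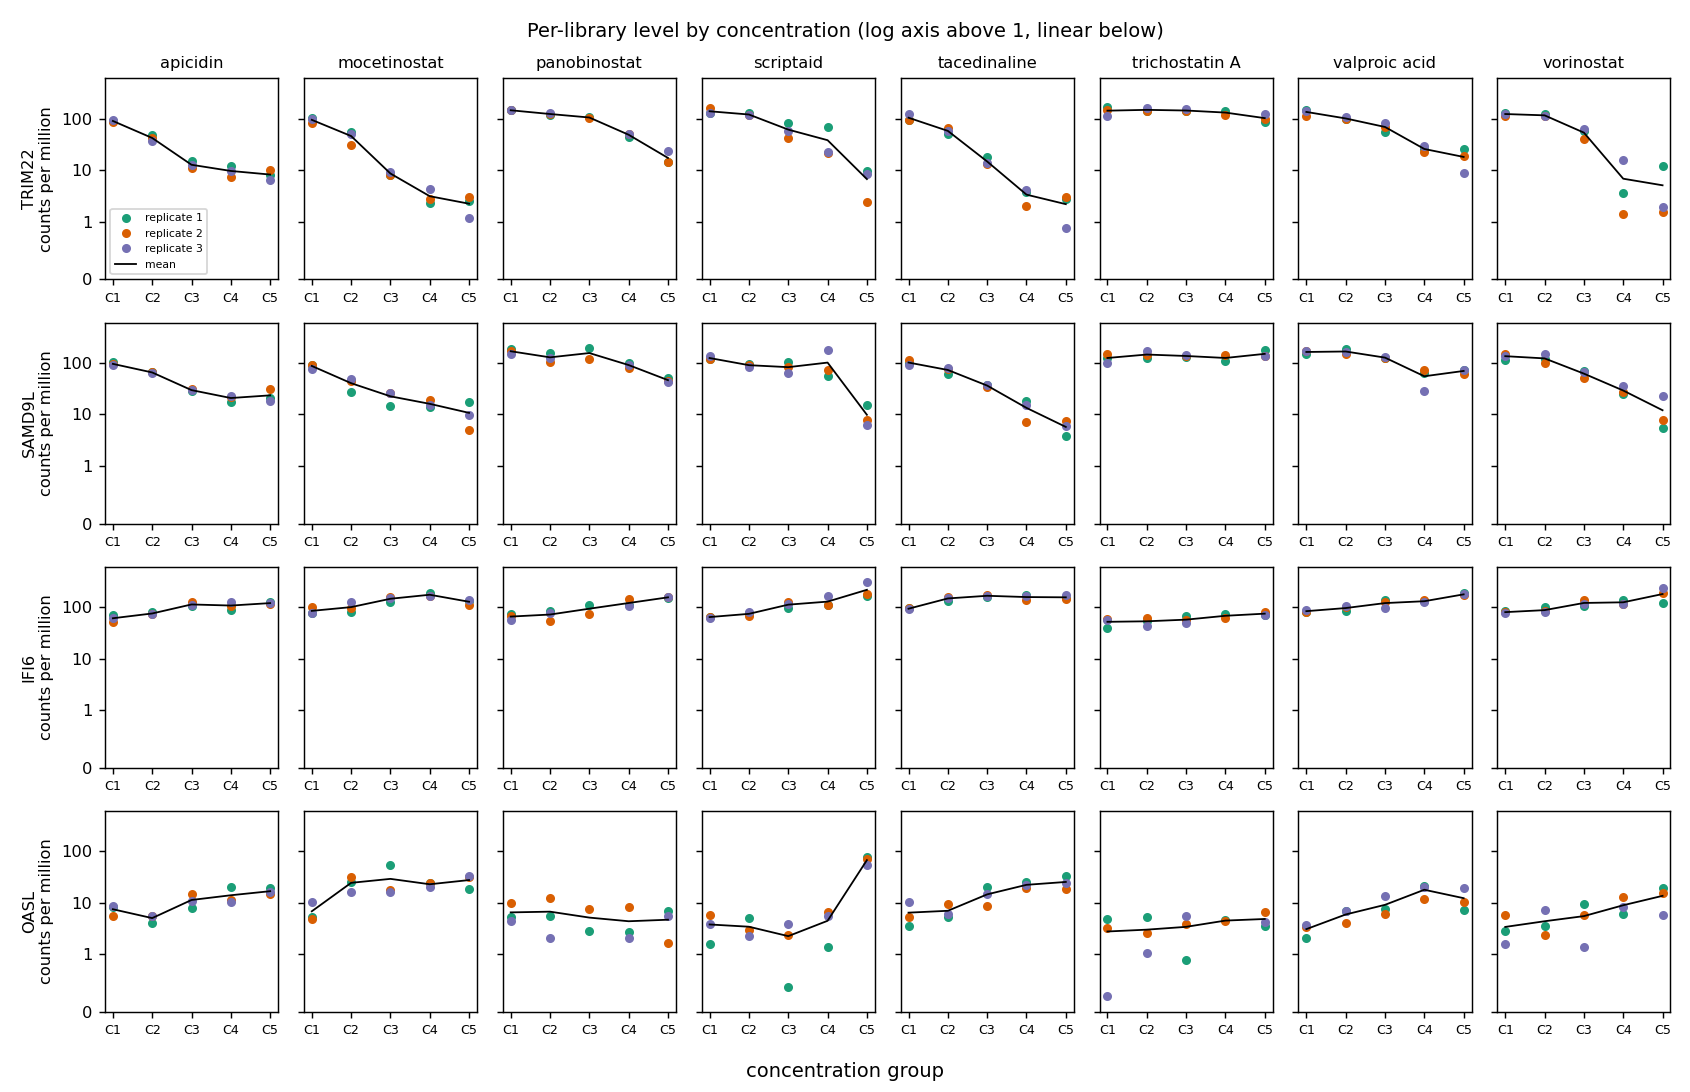
CPM by concentration group for TRIM22, SAMD9L, IFI6 and OASL (rows) in 8 chemicals (columns), 1 point per library coloured by replicate, with a line through the means, on an axis that is logarithmic above 1 and linear below. TRIM22 and SAMD9L are far lower at C5 than at C1 in 7 chemicals, and OASL at scriptaid C5 reaches 52.6 to 76.0. IFI6 is higher at C5 than at C1 in all 8, but in mocetinostat and tacedinaline its mean is higher still at C3.

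Among the sensors of viral nucleic acid, IFI16 and DDX60 fell in 7 chemicals and IFIH1 was called in none. IFI16 binds DNA in the nucleus and cytoplasm, DDX60 is a helicase that promotes RNA sensing, and IFIH1 encodes MDA5, a sensor of long double-stranded RNA. IFI16 was at 184, 223 and 216 CPM at mocetinostat C1 and at 19.9, 32.6 and 24.3 at C5 (log2 change -3.02, SE 0.35, edgeR adjusted p = 7.25e-06). Its fall ran from a log2 change of -3.29 in scriptaid to -0.70 in valproic acid. The valproic acid call was lost without replicate 1 (edgeR adjusted p = 0.0994), and the other 6 were kept in each such fit. DDX60 had few counts, with 10.9, 10.1 and 10.3 CPM at vorinostat C1 and 0, 0.523 and 0 at C5. At 3 counts or fewer in each C5 library, its fall was at least 5-fold in vorinostat, 8.19-fold in mocetinostat and 4.64-fold in tacedinaline. Of its 7 calls, 2 were kept in all fits that left out a replicate, with edgeR adjusted p values up to 0.276 in the rest. IFIH1 was tested in 6 chemicals and had log2 changes from -1.94 to 0.47.

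The transcription factors of the set did not move as a block. STAT2, a subunit of ISGF3, was at 394, 419 and 332 CPM at vorinostat C1 and 239, 252 and 218 at C5, which did not overlap (log2 change -0.69, SE 0.14, edgeR adjusted p = 0.000117). It fell in 4 chemicals, apicidin, mocetinostat, scriptaid and vorinostat, by log2 changes of -0.84 to -0.69. The mocetinostat and scriptaid calls were lost in at least 1 fit without a replicate (edgeR adjusted p from 0.115 to 0.222). In panobinostat, tacedinaline and valproic acid its adjusted p was under 0.05 but the change, -0.54 to -0.38, was under 1.5-fold. IRF9, the DNA-binding subunit of ISGF3, fell by its better-covered probe (IRF9_90117) in panobinostat, scriptaid, valproic acid and vorinostat, and by its second probe (IRF9_89553) in none of 7 chemicals. Each of the 4 IRF9 calls was lost in at least 1 fit without a replicate. IRF7, the amplifier of type I interferon production, was tested in 5 chemicals and called in none.

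IRF1, which activates many of these genes without ISGF3, was the exception that rose. In vorinostat it went from 48.8, 64.4 and 59.1 CPM at C1 to 198, 213 and 192 at C5 (log2 change 1.80, SE 0.19, edgeR adjusted p = 9.81e-10). In apicidin it went from 72, 69.1 and 71.5 to 192, 258 and 201 (log2 change 1.61, SE 0.24, edgeR adjusted p = 2.57e-05). Tacedinaline gave the third rise (log2 change 0.75, SE 0.19, edgeR adjusted p = 0.00102). The groups did not overlap in any of these, and all 3 calls were kept in every fit without a replicate. In panobinostat IRF1 was at 77, 79.2 and 79.4 at C1 and at 83.2, 73 and 69.5 at C5, with overlapping groups and a log2 change of -0.06.

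IFI6, a small mitochondrial and endoplasmic reticulum protein that restricts flaviviruses, rose in 7 chemicals. In valproic acid it was at 79.1, 81.2 and 87.6 CPM at C1 and at 183, 166 and 175 at C5 (log2 change 1.08, SE 0.16, edgeR adjusted p = 5.83e-05). In scriptaid it was at 64.9, 63.9 and 61.9 at C1 and at 161, 175 and 306 at C5 (log2 change 1.75, SE 0.27, edgeR adjusted p = 9.52e-05). Every C5 library was above every C1 library in all 8 chemicals, trichostatin A included, where the change was not called (log2 change 0.53, SE 0.21, edgeR adjusted p = 0.473). This separation alone is not read as a change, because the share of all features with such groups was not counted. Among the called rises of IFI6 the smallest was in mocetinostat (log2 change 0.58, SE 0.21, edgeR adjusted p = 0.0433). That call was lost in each fit without a replicate (edgeR adjusted p from 0.122 to 0.271) and with DESeq2 (adjusted p = 0.0581). It was also lost with RLE size factors, no filter, summed probes, thinned libraries, the replicate block and, for a change under 1.5-fold, without the libraries that stand apart (log2 change 0.52, edgeR adjusted p = 0.0157). The other 6 calls were kept in each fit without a replicate. Other genes named IFI went another way or nowhere. IFI44 fell in scriptaid, tacedinaline and vorinostat and IFI27 in tacedinaline and vorinostat, IFI35 was tested in 3 chemicals without a call, and IFI44L was too low to test. All 3 IFI44 calls were lost in at least 1 fit without a replicate (edgeR adjusted p from 0.142 to 0.435), as was the IFI27 call in vorinostat without replicate 1 or 3 (0.132 to 0.373).

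In the OAS family the enzymes fell where they changed, and OASL rose. OAS1, OAS2 and OAS3 make the 2-5A messenger that activates RNase L on double-stranded RNA, and OASL is a relative without that activity that assists RNA sensing. In scriptaid OASL went from 1.6, 5.9 and 3.87 CPM at C1 to 76, 71.3 and 52.6 at C5, a 17.1-fold rise (log2 change 4.10, SE 0.58, edgeR adjusted p = 3.69e-05). At C4 it had still been at 6.52 or less in each library. OASL also rose, by the log2 changes in brackets, in mocetinostat (2.01), valproic acid (1.99), vorinostat (1.93), tacedinaline (1.85) and apicidin (1.16). The scriptaid and tacedinaline calls were kept in each fit without a replicate. The other 4 were lost in at least 1 (edgeR adjusted p from 0.0598 to 0.157), namely apicidin without any 1 of the 3 replicates, mocetinostat without replicate 2, valproic acid without replicate 1 or 3 and vorinostat without replicate 1. With libraries thinned to equal depth the valproic acid call of OASL was lost too (log2 change 1.19, edgeR adjusted p = 0.231). In panobinostat OASL had no call (log2 change -0.49, SE 0.67, edgeR adjusted p = 0.678).

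OAS1 by its better-covered probe (OAS1_25326) was at 23.6, 28.8 and 20.9 CPM at vorinostat C1 and 10, 7.33 and 15 at C5 (log2 change -1.19, SE 0.33, edgeR adjusted p = 0.00335), and it also fell in mocetinostat and tacedinaline. Its second probe (OAS1_27617) was tested in 2 chemicals without a call. OAS3 by its better-covered probe (OAS3_87750) went from 26.4, 44.6 and 40.2 to 10, 6.8 and 5.22 in vorinostat (log2 change -2.38, SE 0.37, edgeR adjusted p = 2.09e-06), and it also fell in scriptaid, apicidin and panobinostat. The second OAS3 probe (OAS3_90233) fell in mocetinostat, panobinostat and scriptaid. The probes differed in mocetinostat, where the first had a log2 change of -0.08 and the second of -2.01. With the probes of OAS3 summed, mocetinostat gave no call. None of the 3 calls of the second probe was kept in all fits without a replicate (edgeR adjusted p from 0.0659 to 0.321). The call of the better-covered OAS3 probe in panobinostat was lost in each such fit (0.0658 to 0.232), and those of OAS1 in vorinostat and mocetinostat were lost without replicate 2 (0.125 to 0.289). OAS2 fell in apicidin (log2 change -3.35, SE 1.14, edgeR adjusted p = 0.0296) and tacedinaline (log2 change -3.05, SE 1.04, edgeR adjusted p = 0.0161), and both calls were lost in at least 1 fit without a replicate.

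The IFIT family split in the same manner. IFIT proteins bind the ends of foreign RNA, and the genes IFIT2, IFIT3, IFIT1 and IFIT5 lie in 1 cluster on chromosome 10. IFIT1 rose in vorinostat, from 67.8, 82 and 68.2 CPM at C1 to 143, 184 and 140.2 at C5 (log2 change 1.10, SE 0.19, edgeR adjusted p = 1.41e-05). IFIT3 in the same libraries went from 6.32, 4.67 and 6.75 to 0, 2.09 and 0 (log2 change -2.73, SE 0.95, edgeR adjusted p = 0.0159). Thus 1 member of the cluster rose while another fell. IFIT1 also rose in apicidin (log2 change 0.80) and in scriptaid (0.83), the latter with overlapping groups and a call that was lost without replicate 1 or 2 (edgeR adjusted p of 0.388 and 0.215). In mocetinostat IFIT1 had a log2 change of -0.63 and no call. IFIT3 fell in 5 chemicals and lay at 3 counts or fewer in every C5 library of scriptaid, tacedinaline and mocetinostat, so that its fall was at least 5.32-fold, 5.82-fold and 7.87-fold there. Each of the 5 calls was lost in at least 1 fit without a replicate (edgeR adjusted p up to 0.121). IFIT5 fell in apicidin, mocetinostat, scriptaid and tacedinaline, by log2 changes of -1.92 to -1.08, and the tacedinaline call alone was kept in every fit without a replicate (edgeR adjusted p up to 0.248 in the others). IFIT2 passed the filter in 3 chemicals and fell in panobinostat, from 4.65, 5.22 and 3.11 CPM to 0 in all C5 libraries, by at least 5.6-fold, a call lost without replicate 1 (edgeR adjusted p = 0.0747).

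**Figure D3:**
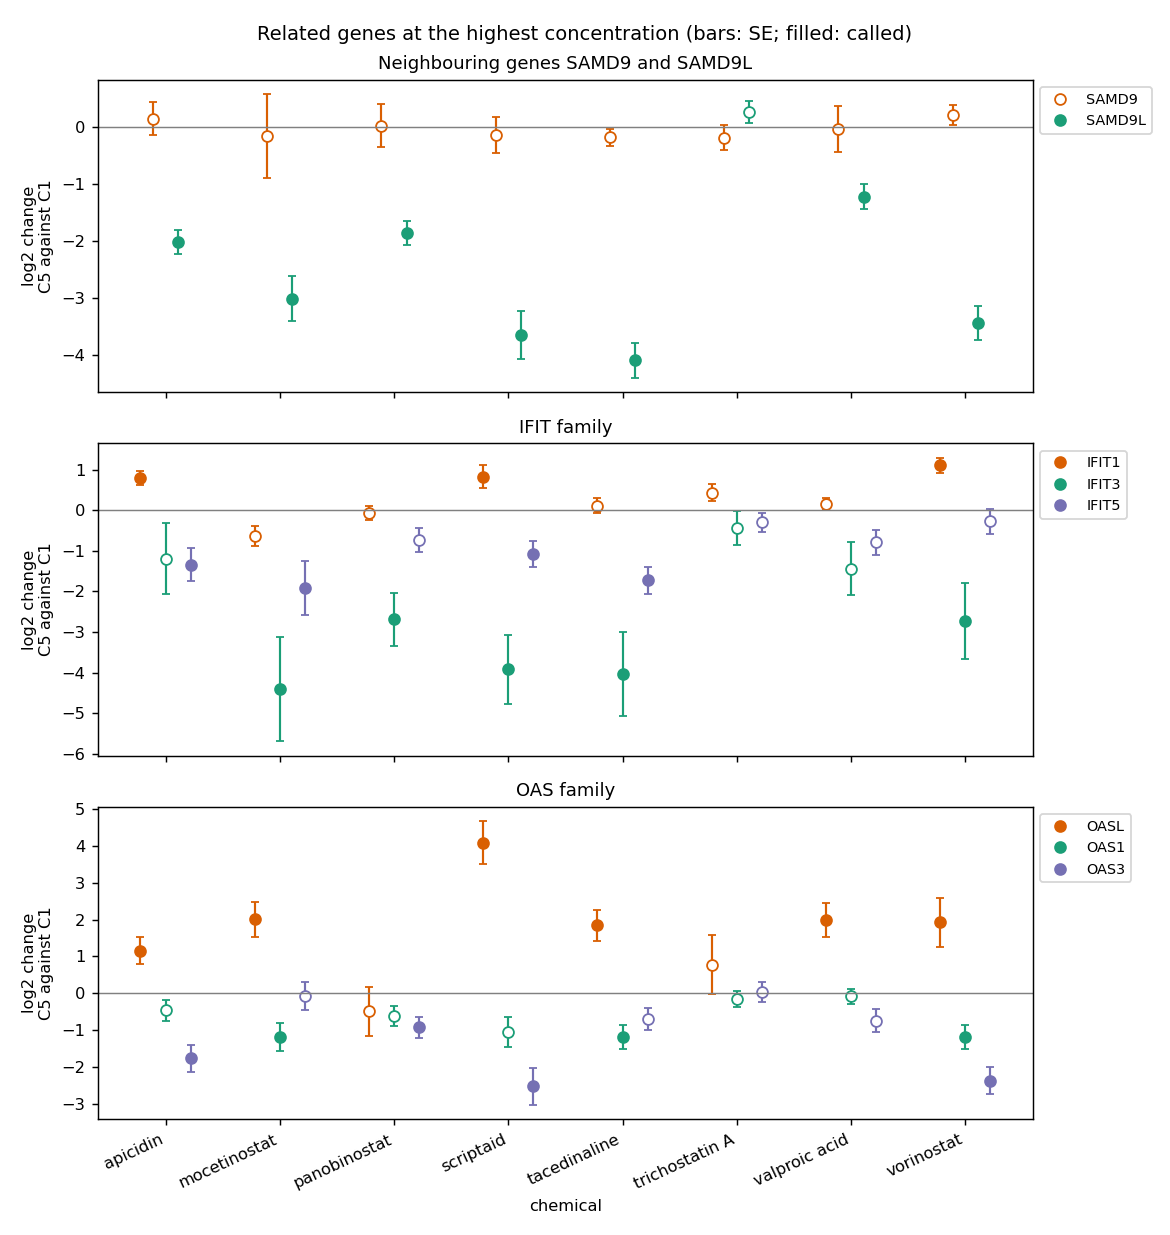
Log2 change at C5 against C1 with its SE for SAMD9 and SAMD9L (top), for IFIT1, IFIT3 and IFIT5 (middle) and for OASL, OAS1 and OAS3 (bottom, better-covered probes) in 8 chemicals, filled where the change was called. SAMD9 lies at 0 while SAMD9L is at -1.22 or below in 7 chemicals, and IFIT1 and OASL lie above their relatives in most chemicals.

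Guanylate-binding proteins coat intracellular vacuoles and microbes, and GBP1 and GBP2, adjacent on chromosome 1, fell together. GBP1 was at 167, 164 and 118 CPM at mocetinostat C1 and 18.9, 19.2 and 16 at C5 (log2 change -3.05, SE 0.26, edgeR adjusted p = 3.04e-07). GBP2 was at 75.8, 60.9 and 66.8 in the same C1 libraries and at 11.5, 27.1 and 12.7 at C5 (log2 change -1.99, SE 0.41, edgeR adjusted p = 0.00145). Neither gene's groups overlapped. GBP1 fell in 7 chemicals and GBP2 in 6, valproic acid being the difference between them (GBP2 log2 change -0.63, edgeR adjusted p = 0.0919). The GBP1 call in valproic acid was lost in each fit without a replicate (edgeR adjusted p from 0.0887 to 0.122), and the GBP2 call in scriptaid without replicate 1 (0.143). The dynamin-like GTPases MX1 and MX2, which trap incoming viral capsids, were called in no chemical at C5. MX1 was low, between 2.82 and 9.72 CPM in the C1 libraries, and its log2 changes ran from -1.54 to -0.27.

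PARP9 and PARP14, a pair of ADP-ribosyltransferase family proteins that modulate interferon signalling, fell in 7 and 5 chemicals. PARP9 was at 85.3, 64.6 and 127 CPM at scriptaid C1 and 9.5, 15.5 and 9.89 at C5 (log2 change -2.96, SE 0.36, edgeR adjusted p = 8.45e-06). PARP14 was at 17.6, 16.2 and 26.5 and 1.81, 4.25 and 2.6 in the same libraries (log2 change -2.73, SE 0.55, edgeR adjusted p = 0.000952). Both had C5 libraries well below C1. The PARP9 call in valproic acid was lost without replicate 1 (edgeR adjusted p = 0.143), as was that of PARP14 in apicidin without replicate 3 (0.133).

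The ISG15 system was uneven. ISG15, the ubiquitin-like modifier itself, was between 3.33 and 10.5 CPM in the C1 libraries and was called in no chemical, with log2 changes from -0.84 to 1.03. USP18, the protease that removes ISG15 and restrains receptor signalling, fell in 4 chemicals, in vorinostat by at least 2.44-fold. In tacedinaline it went from 7.98, 7.09 and 7.65 to 0, 0 and 1.8 (log2 change -3.55, SE 1.05, edgeR adjusted p = 0.00556), and all C5 libraries were below C1. Each of its 4 calls was lost in at least 1 fit without a replicate. HERC5, the ligase for ISG15, rose in mocetinostat (log2 change 0.74, SE 0.24, edgeR adjusted p = 0.0289) and scriptaid (log2 change 0.92, SE 0.30, edgeR adjusted p = 0.025), and its neighbour HERC6 fell in vorinostat (log2 change -2.44, SE 0.68, edgeR adjusted p = 0.00291). The HERC5 call in mocetinostat was lost in each fit without a replicate, and that in scriptaid without replicate 1 or 2 (edgeR adjusted p up to 0.280). With no filter on low counts both were lost as well (edgeR adjusted p of 0.143 and 0.104). The HERC6 call was kept in each fit without a replicate.

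The remaining antiviral effectors changed little or were scarce. BST2, the tether that holds budding virions at the cell surface, was the most counted member, at 624 to 1113 CPM in the C1 libraries. It fell in tacedinaline (log2 change -0.88, SE 0.12, edgeR adjusted p = 6.46e-08) and mocetinostat (log2 change -0.78, SE 0.26, edgeR adjusted p = 0.0297), the latter call being lost without replicate 2 or 3. In vorinostat it was also lower (log2 change -0.56, edgeR adjusted p = 0.000332), but by less than 1.5-fold and thus without a call. The exonuclease ISG20 fell in mocetinostat and the apoptosis-linked XAF1 in mocetinostat and scriptaid, all on few counts and lost in at least 1 fit without a replicate. The XAF1 falls were at least 6.21-fold and 2.6-fold. LGALS3BP was tested in 8 chemicals and never called, with log2 changes from -1.32 to -0.05. IFITM1 was tested in 1 chemical without a call. The radical SAM enzyme RSAD2 had 0 counts in 113 of the 118 libraries and at most 4 in the rest, and CMPK2 and EPSTI1 were at 0 in 105 and 103.

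At the intermediate concentration the same direction was already present in some chemicals. At C3, 9 members fell and 2 rose in apicidin, together 11 of 34 against 15.3% of all features called. In tacedinaline 7 fell and 1 rose, 8 of 34 against 11.9%, and in mocetinostat 5 fell and 2 rose, 7 of 36 against 11.6%. Vorinostat had 5 falls and 0 rises of 29 members, against 7.06%. These shares of called members, 32.4%, 23.5%, 19.4% and 17.2%, were above those of all features. No member was called at C3 in panobinostat, scriptaid, trichostatin A or valproic acid, where, in that order, 0.00763%, 1.34%, 0% and 1.13% of all features were called and 3, 3, 5 and 3 members had an unadjusted p under 0.05. DESeq2 called 0 members at C3 in the first 3 of these and TRIM22 in valproic acid (log2 change -0.97, DESeq2 adjusted p = 0.012). TRIM22 at C3 was at 14.9, 10.8 and 12.6 CPM in apicidin (log2 change -2.81, SE 0.24, edgeR adjusted p = 1.08e-07), at 8.23, 8.29 and 9.47 in mocetinostat and at 17.8, 13 and 13.6 in tacedinaline. In vorinostat TRIM22 was at 57.7, 41.1 and 61.9 at C3 (log2 change -1.20, SE 0.33, edgeR adjusted p = 0.0198). SAMD9L fell at C3 in the same 4 chemicals. MX1, without a call at C5, fell at C3 in apicidin, from 5.17, 5.11 and 2.82 CPM at C1 to 0.69, 0 and 0.247, by at least 6.09-fold (edgeR adjusted p = 0.0123). On the log2 scale, IFI6 rose at C3 in apicidin (0.89), mocetinostat (0.78) and tacedinaline (0.83), and OASL in mocetinostat (2.08). Replicate 1 of mocetinostat C3 is among the libraries that stand apart, and without these libraries 2 members rose and 9 fell in mocetinostat at C3. Without replicate 2 the mocetinostat count was 2, that of apicidin 5, that of tacedinaline 5 and that of vorinostat 0. Without replicate 3 apicidin had 6, and without replicate 1 vorinostat had 1.

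**Figure D4:**
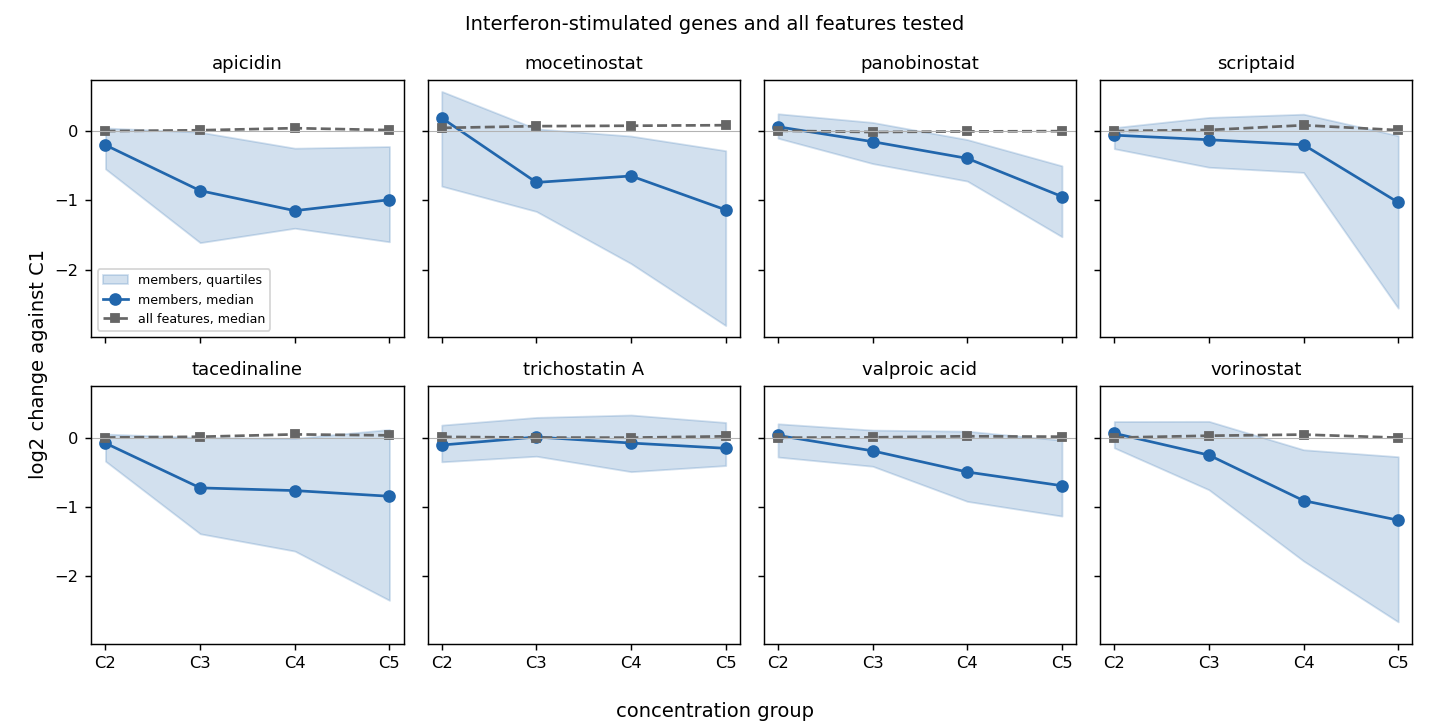
Median log2 change against C1 of the members tested (circles, band between the quartiles) and of all features tested (squares) at C2 to C5 in 8 chemicals. In apicidin and tacedinaline the members' median is at -0.86 and -0.73 by C3, in scriptaid it drops from -0.20 at C4 to -1.03 at C5, and in trichostatin A it stays between -0.15 and 0.01.

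Doses differed between the chemicals, so the steepness of these courses is given side by side only. The members' median was at -0.86 at C3 in apicidin, -0.74 in mocetinostat and -0.73 in tacedinaline. In panobinostat it went from -0.15 at C3 over -0.40 at C4 to -0.95 at C5, and in vorinostat from -0.25 over -0.91 to -1.19. In valproic acid it went from -0.19 over -0.50 to -0.69. The median of all features stayed between -0.02 and 0.08 at every step.

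The pathway above these genes was described from a list of its other genes. Of the 9 ligand genes, with 11 features, only interferon epsilon (IFNE) passed the filter, and it was called in no chemical. The other 10 ligand features had at most 8 counts in any library, so no change of these transcripts was detectable at this depth. Receptors had 5 falls (11.4%) and 0 rises among 44 tests. On average 13.4% of all features fell in the same chemicals, so the falling share was near the background. The rising share of 0% was below the average of 11.6%. The falls were those of IFNGR2 in 3 chemicals and IFNAR2 in 2, while IFNAR1, IFNLR1, IFNGR1 and IL10RB were called in none.

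JAK1, the kinase shared by the interferon receptors, rose in 4 chemicals, from a mean of 113 CPM at vorinostat C1 to 312 at C5 (log2 change 1.47, SE 0.17, edgeR adjusted p = 1.43e-08). The others were apicidin, tacedinaline and mocetinostat (log2 changes 1.03, 1.05 and 0.91). TYK2, the second of these kinases, fell in apicidin, panobinostat and vorinostat (log2 changes -1.06, -0.87 and -1.04). JAK2, which serves the interferon gamma receptor, fell in panobinostat (log2 change -1.60, SE 0.55, edgeR adjusted p = 0.0473), and STAT3 rose in tacedinaline and vorinostat (log2 changes 1.18 and 0.92). Calls of genes outside the members, here and below, were not followed in the fits without a replicate or in other alternative fits. TLR3, the endosomal sensor of double-stranded RNA, fell in 6 chemicals. It was at a mean of 10.7 CPM at tacedinaline C1 and at 0 in each C5 library, a fall of at least 7.8-fold, and in scriptaid of at least 12.8-fold. IRF2, a factor that competes with IRF1 for the same promoters, fell in 5 chemicals, by log2 changes of -2.62 to -0.99. Sensors and adaptors as a list had 8 falls (22.2%, against an average of 12.1% of all features) and 0 rises (against 10.5%) among 36 tests. Of the 8 falls, 6 were those of TLR3. The other interferon regulatory factors had 6 falls and 0 rises among 43 tests. Their falling share of 14% was near the average of 12.8%, and their rising share of 0% was below the average of 11.1%. Inhibitors had 1 rise and 1 fall among 22 tests (4.55% each, against averages of 11% rising and 12.7% falling). The other conjugation enzymes had 2 falls among 9 tests (22.2%, against an average of 13.1% of all features), both of UBE2L6. They had 0 rises, against an average of 11.2%.

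Markers of cell types moved in the same comparisons. All 5 hepatocyte markers (ALB, APOA1, TTR, SERPINA1 and FGB) were tested in 8 chemicals and gave 32 falls and 0 rises among 40 tests. Their falling share was 80%, against an average of 13.6% of all features in the same chemicals, and 11.8% of all features rose. Their summed level was 36990 to 50600 CPM in the 3 libraries of tacedinaline C1 and 3154 to 4466 at C5. In panobinostat it was 36030 to 41420 at C1 and 19360 to 25340 at C5. In trichostatin A, where the members were not called, it was 11650 to 46870 at C1 and 31150 to 39270 at C5. Biliary or progenitor markers had 11 rises (SPP1 and SOX9 in 5 chemicals each and KRT19 in 1) and 0 falls among 33 tests. Their rising share was 33.3%, against an average of 11.4% of all features, and 13.1% of all features fell. Fibroblast markers had 7 rises (14.6%, against 11.8%) and 17 falls (35.4%, against 13.6%) among 48 tests. The genes went different ways: COL1A1 rose in 6 chemicals and PDGFRB in 1, while COL3A1 fell in 7. The remaining falls were all of DCN, whose probes were counted separately and fell in 6, 3 and 1. Of the 6 leukocyte markers, PTPRC was at 0 in all 118 libraries and CD3E, MS4A1 and CD163 were at 0 in 116, 114 and 94. CD68 and CD14 were tested and gave 3 falls (CD14 in mocetinostat and tacedinaline, CD68 in tacedinaline) and 0 rises among 16 tests. The falling share was 18.8%, against an average of 13.6% of all features, and 11.8% of all features rose. The summed level of the 6 leukocyte markers was 25.3 to 128.6 CPM over the C1 groups and 16.1 to 51.7 over the C5 groups. Among 6 endothelial features KDR and 1 PECAM1 probe were tested, and VWF, CDH5 and the second PECAM1 probe were not. The 10 tests gave 1 fall (10%, against an average of 11.5% of all features) and 0 rises (against 9.92%). The fall was that of KDR in scriptaid (log2 change -2.77, SE 0.71, edgeR adjusted p = 0.00648). The part of a change in cell state or composition in the members' falls was not tested.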

How the data were processed

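HepaRG lysates were profiled by TempO-Seq in 118 libraries. The authors deposited raw, not normalised, counts per detector probe. Per the submitters' processing notes, bcl2fastq 2.20.422, fastp 0.23.2, STAR 2.7.10b and DESeq2 1.38.0 were named, without their roles. Of 22069 rows, 1 with missing values in 88 libraries was dropped. Levels are CPM on TMM-scaled totals within a chemical, and they are not compared between genes because probes differ.

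For each chemical, all its libraries entered 1 fit in edgeR 4.0.16 (R 4.3.3; filterByExpr, TMM, quasi-likelihood, no batch term), tested on simulated data. C5 and C3 were compared with C1. A call needed a Benjamini-Hochberg adjusted p under 0.05 over all features and a fold of at least 1.5. A group with at most 3 counts in each library was set to 3 counts per library for "at least" folds. Replicates came from 3 cell batches, and p-values measure the spread between these libraries. Deviations from group means correlated by a median of 0.0373 within a batch, and batch was tried as a replicate block.

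The genes and lists were chosen with earlier results of these data known. Values were given for members called at C5 in at least 4 chemicals and the 2 largest rises and falls per chemical, and for pathway genes called in at least 4, of which 1 list is not reported here in full. The remaining members named complete their families. Alternatives, followed for the members only, were RLE size factors, DESeq2 1.42.0, no filter, the replicate block, summed probes and leaving out each replicate. Thinning to equal depth and leaving out libraries that stand apart were chosen after seeing the data.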

Additional observations from a re-analysis of the deposited data

How the results depend on the processing

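No call at C5 was reversed under any alternative. Of the 119 calls, DESeq2, RLE size factors and the replicate block (paired by cell batch) each kept 118, summed probes 117 and no filter 111. Thinning kept 89 of the 102 calls it gave a value for, and leaving out the libraries that stand apart, which applied to 6 chemicals, kept 77 of 79. The replicate block lost IFI6 in mocetinostat (log2 change 0.59, adjusted p = 0.0508) and moved no count of members by over 1.5 times. Thinned libraries gave 12 called members in mocetinostat and 8 in panobinostat at C5 (20 and 13 otherwise) and 7 in apicidin at C3 (11 otherwise). At C3, leaving out the libraries that stand apart gave 11 called members in mocetinostat (7 otherwise), 3 in scriptaid and 1 in valproic acid (0 otherwise in both). No filter gave 1 in scriptaid and 1 in valproic acid, and DESeq2 gave 1 in valproic acid. The cause was not tested.

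Leaving out 1 replicate at a time gave, at C5, 8 to 14 called members in mocetinostat, 8 to 10 in panobinostat, 10 to 21 in scriptaid, 0 to 1 in trichostatin A and 3 to 8 in valproic acid. At C3 it gave 5 to 9 in apicidin, 2 to 6 in mocetinostat, 0 to 2 in scriptaid, 5 to 6 in tacedinaline, 0 to 1 in valproic acid and 0 to 5 in vorinostat. The lowest C5 counts were without replicate 2 in mocetinostat (8) and scriptaid (10) and without replicate 1 in panobinostat (8) and valproic acid (3). Such fits have fewer libraries. Members with a few counts per library, such as DDX60 and IFIT3, are limited by depth.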
